A study of Mus musculus with 6 samples.

Results

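The 10 genes described here make the machinery that shows intracellular peptides on major histocompatibility complex (MHC) class I molecules. They were picked by gene name from a table of 13823 genes, with earlier results of these data known, and all 10 were listed. They are the heavy chain genes H2-K1, H2-D1, H2-Q1 and H2-T23, the light chain gene B2m, the peptide transporter genes Tap1 and Tap2, the loading factor gene Tapbp, the peptide-trimming enzyme gene Erap1 and the transactivator gene Nlrc5. RNA sequencing was done on tissue labelled breast from 6 Balb/c mice, 3 given vehicle (labelled DMSO) and 3 given ITSN (isotoosendanin, a plant limonoid) into the stomach at 1 mg/kg per day. The series title concerns triple-negative breast cancer and the type I TGF-β receptor, but the labels give neither a tumour, nor an age, nor the length of dosing. Values are FPKM, which scales fragments by transcript length and library total, so that levels of different genes are compared per length. Values of a group are given in the order of its libraries 1, 2 and 3 throughout.

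A class I molecule is a polymorphic heavy chain held together with β2-microglobulin (B2m) and a short peptide. The proteasome cuts proteins into peptides, the Tap1-Tap2 pump carries them into the endoplasmic reticulum, tapasin (Tapbp) with calreticulin and Pdia3 holds the empty molecule for loading, and Erap1 trims peptides to length. Nlrc5 is a coactivator of the class I genes, and interferon γ raises many genes of the pathway. H2-K1 and H2-D1 are classical heavy chains read by CD8 T cells, whereas H2-Q1 and H2-T23 (the Qa-1 chain, read by NK cell receptors) are nonclassical.

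Promoter sequence is shown for 4 members, the classical heavy chains H2-K1 and H2-D1, the Qa-1 gene H2-T23 and the light chain gene B2m, because their ITSN values stood above, among or below the vehicle values. Each is the 250 bases before the RefSeq start (GRCm38.p6), 5′ to 3′ on the strand of the gene. The capitals mark the longest run shared by H2-K1 and H2-D1, shown in those genes alone, and matches on either strand to 3 patterns. These are CCAAT, the X2 box part TGACGC, and 2 copies of GAAA with 2 free bases between them (the core of interferon response elements).
H2-K1, chr17:34000348-34000597, minus strand: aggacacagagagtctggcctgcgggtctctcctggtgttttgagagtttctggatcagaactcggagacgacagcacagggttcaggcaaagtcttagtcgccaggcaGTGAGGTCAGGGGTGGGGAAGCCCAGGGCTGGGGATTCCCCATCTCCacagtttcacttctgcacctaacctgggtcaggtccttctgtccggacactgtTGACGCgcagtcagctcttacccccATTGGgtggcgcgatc
H2-D1, chr17:35262844-35263093, plus strand: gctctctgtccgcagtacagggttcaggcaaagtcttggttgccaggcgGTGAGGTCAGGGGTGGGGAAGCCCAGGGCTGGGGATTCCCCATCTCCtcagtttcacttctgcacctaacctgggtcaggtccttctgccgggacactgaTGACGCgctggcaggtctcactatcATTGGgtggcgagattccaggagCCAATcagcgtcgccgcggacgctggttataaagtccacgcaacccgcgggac
H2-T23, chr17:36032702-36032951, minus strand: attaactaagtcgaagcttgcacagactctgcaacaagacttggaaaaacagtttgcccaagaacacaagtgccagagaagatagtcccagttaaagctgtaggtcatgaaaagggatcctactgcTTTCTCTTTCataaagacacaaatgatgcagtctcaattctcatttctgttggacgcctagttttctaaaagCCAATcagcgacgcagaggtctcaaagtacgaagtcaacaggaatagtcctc
B2m, chr2:122147437-122147686, plus strand: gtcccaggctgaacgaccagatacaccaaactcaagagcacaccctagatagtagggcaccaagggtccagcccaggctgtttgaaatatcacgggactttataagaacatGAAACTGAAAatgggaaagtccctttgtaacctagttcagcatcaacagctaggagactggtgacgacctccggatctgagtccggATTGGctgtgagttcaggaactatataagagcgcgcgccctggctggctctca
The H2-K1 and H2-D1 windows shared an unbroken run of 47 bases, at -141 to -95 in H2-K1 and at -201 to -155 in H2-D1. It was found in 0.00913% of 32851 promoter windows, all of these 2 genes. The run was taken from these same windows, so its presence in both was fixed beforehand. TGACGC was matched in H2-K1 at -41 to -36 and in H2-D1 at -101 to -96, and 6.12% of windows hold it. The paired GAAA pattern was matched in B2m at -139 to -130 and on the other strand in H2-T23 at -124 to -115, and 2.98% of windows hold it. H2-K1 and H2-D1 held no exact match. That does not show that they lack such an element, since near variants of the pattern were not searched for. CCAAT was matched in each of the 4, as in 33.8% of windows. RefSeq windows were matched for 7 of the 10 members. Of the 3 not shown, Tapbp and Tap1 held only CCAAT among these patterns, and Erap1 held none, which says only that these letters are not in that window. The letters are those of the reference strain, and no pattern match overlapped another.

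Vehicle 1 stood apart from the other libraries. It correlated with vehicle 2 and 3 at 0.9619 and 0.9363 across log2 values of the tested genes, against 0.9845 between vehicle 2 and 3 and 0.9725 to 0.9879 within ITSN. The mitochondrial share of summed FPKM was 32.3%, 22.4% and 17.5% across the vehicle libraries, against 13.5% to 15.6% under ITSN. The labels state male mice, yet Xist stood at 20.1 to 29.3 FPKM in the 6 libraries, and none of 4 Y-linked genes looked for was among the listed genes. Of 20 mammary epithelial markers 10 were listed, among them Krt8 and Krt18, and the milk protein genes Csn2, Wap and Lalba were not. Depth is unknown, since FPKM does not keep it.

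ITSN and vehicle were compared for all 12257 genes with at least 1 FPKM in 3 libraries, by limma on log2(FPKM + 1) with Benjamini-Hochberg adjustment over those genes. None of the 10 members passed an adjusted p of 0.05, where 0.0571% of the tested genes did. At an unadjusted p under 0.05 in limma 5 members were higher in ITSN and 0 lower, where 16.3% and 4.57% of the tested genes were. Those 5 (H2-Q1, H2-D1, Tapbp, Nlrc5 and H2-T23) were also the members whose ITSN values all lay above all vehicle values, which held for 21.8% of the tested genes. B2m was the member with the groups apart in the other direction, which held for 7.37%. The median log2 change of the members was 0.45, against 0.09 for the tested genes. Without vehicle 1 these medians were 0.37 and 0.03. The tested genes with 52% to 58% GC, a range that held 7 of the members, had a median of 0.26.

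Of the listed heavy chains, H2-D1 was the most abundant. It stood at 157, 174 and 182 FPKM in the vehicle libraries, against 239, 223 and 254 FPKM under ITSN. The groups did not overlap, and the lowest ITSN library lay above the highest vehicle library. The group means were 171 ± 12.6 and 239 ± 15.4 FPKM (SD, n = 3 each), a ratio of 1.40 and a log2 change of 0.48 (95% interval 0.23 to 0.73, limma adjusted p = 0.090).

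H2-Q1, a heavy chain gene of the Q region, had the smallest p of the members and ranked 19 among the tested genes. Its level was 7.09, 8.60 and 7.78 FPKM in the vehicle libraries, against 15.6, 13.8 and 14.4 FPKM under ITSN. Within each group the libraries lay close together and the groups were well apart. The means were 7.82 ± 0.760 and 14.6 ± 0.939 FPKM (SD, n = 3 each), a ratio of 1.87 and a log2 change of 0.83 (95% interval 0.58 to 1.07, limma adjusted p = 0.063).

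H2-T23 had a change of like size with all 6 libraries, but with a wider spread. It stood at 9.00, 13.2 and 15.9 FPKM in the vehicle libraries, against 22.6, 17.4 and 28.0 FPKM under ITSN. The groups did not overlap, but vehicle 3 lay just under ITSN 2. The log2 change was 0.80 (95% interval 0.23 to 1.37, limma adjusted p = 0.13). Without vehicle 1 it was 0.59, and 0.43 with the GC trend removed as well, against 0.76 and 0.75 for H2-Q1.

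H2-K1, also a classical heavy chain, showed no such separation. Its values were 47.8, 36.4 and 36.2 FPKM in the vehicle libraries, against 35.6, 39.4 and 52.3 FPKM under ITSN. The highest library of each group stood over the lowest of the other. The log2 change of 0.07 (95% interval -0.35 to 0.49, limma adjusted p = 0.85) turned negative after trimmed-mean scaling (-0.04), after rescaling to nuclear genes (-0.01), after removal of the GC trend (-0.16) and without ITSN 3 (-0.08).

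**Figure D1:**
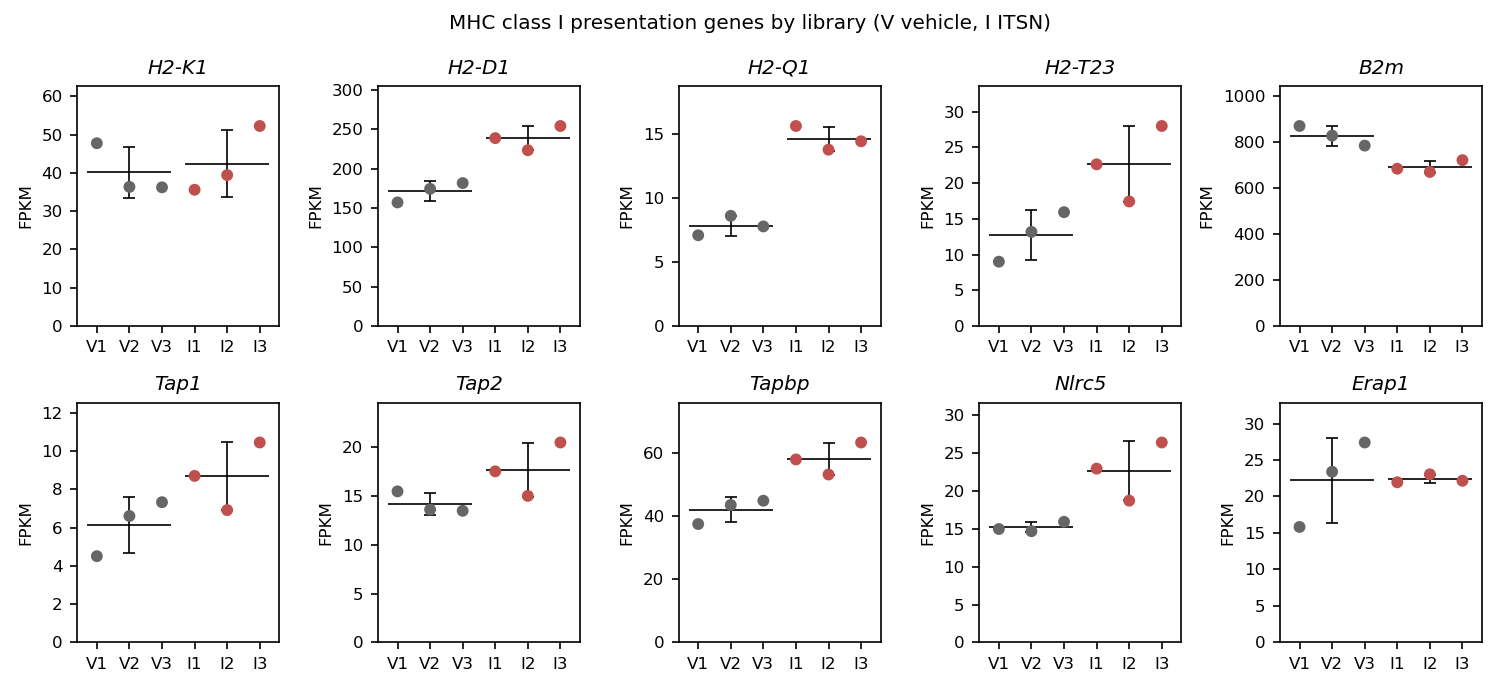
FPKM of the 10 class I genes in each library, with vehicle in grey (V1 to V3) and ITSN in red (I1 to I3); lines and bars are the group mean ± SD (n = 3) and each axis starts at 0. The 3 ITSN values lie above the 3 vehicle values for H2-D1, H2-Q1, H2-T23, Tapbp and Nlrc5, below them for B2m, and overlap them for the other genes.

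B2m, the light chain shared by all class I molecules, was the most abundant member in every library. It stood at 869, 827 and 784 FPKM in the vehicle libraries, against 684, 669 and 721 FPKM under ITSN. All 3 ITSN libraries were below all 3 vehicle libraries, the opposite side from H2-D1, H2-Q1 and H2-T23. The log2 change was -0.26 (95% interval -0.53 to 0.01, limma adjusted p = 0.26), and -0.05 after quantile normalization.

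The 4 heavy chains summed to 221, 232 and 241 FPKM in the vehicle libraries, against 312, 294 and 349 FPKM under ITSN. B2m therefore exceeded that sum 3.94-, 3.56- and 3.25-fold in the vehicle libraries and 2.19-, 2.28- and 2.07-fold in the ITSN libraries. That sum leaves out other listed heavy chains, such as H2-Q4. Over the sum of all listed class I heavy chains B2m stood at 2.38, 2.01 and 1.80 in the vehicle libraries, against 1.25, 1.35 and 1.17 under ITSN. The ratio to the 4 members, which a scaling of a whole library leaves as it is, had means of 3.58 ± 0.346 and 2.18 ± 0.106 (SD, n = 3 each), and the groups did not overlap. B2m has a GC content of 41.2% in its longest transcript and the 4 heavy chains have 49.3% to 55.9%. After removal of the GC trend from each library the ratio was 3.30, 3.18 and 3.01 in the vehicle libraries, against 2.46, 2.40 and 2.50 under ITSN, so the groups stayed apart with a smaller distance. The H2-D1 to H2-K1 ratio overlapped between groups, at 3.29, 4.79 and 5.01 in the vehicle libraries, against 6.70, 5.66 and 4.86 in ITSN.

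**Figure D2:**
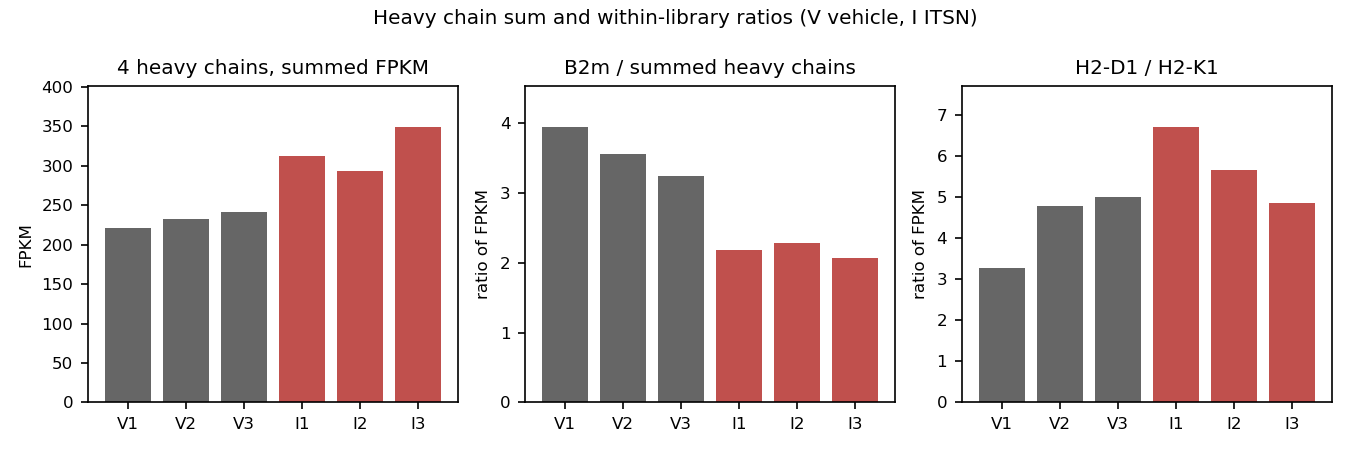
Summed FPKM of H2-K1, H2-D1, H2-Q1 and H2-T23 (left), B2m divided by that sum (middle) and H2-D1 divided by H2-K1 (right) in each vehicle (grey) and ITSN (red) library, with axes from 0. The B2m ratio lies between 3.25 and 3.94 in vehicle and between 2.07 and 2.28 in ITSN, while the H2-D1 to H2-K1 ratio overlaps.

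Among the transporter and loading genes, Tapbp, which encodes tapasin, separated the groups. It stood at 37.6, 43.6 and 45.0 FPKM in the vehicle libraries, against 58.1, 53.3 and 63.5 FPKM under ITSN. The log2 change was 0.46 (95% interval 0.20 to 0.73, limma adjusted p = 0.099).

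The 2 chains of the peptide pump were less clear. Tap1 was at 4.51, 6.61 and 7.33 FPKM in the vehicle libraries, against 8.70, 6.91 and 10.4 FPKM under ITSN, so that vehicle 3 lay above ITSN 2. Its log2 change was 0.44 (95% interval -0.03 to 0.92, limma adjusted p = 0.27), or 0.27 without vehicle 1, 0.16 after removal of the GC trend and 0.06 with both. Tap2 was the more abundant chain in each library, at 15.5, 13.6 and 13.5 FPKM in the vehicle libraries, against 17.5, 15 and 20.5 FPKM under ITSN, where vehicle 1 lay above ITSN 2. Its log2 change was 0.29 (95% interval -0.02 to 0.60, limma adjusted p = 0.26) and turned to -0.03 after removal of the GC trend. It was 0.18 after trimmed-mean scaling and 0.18 without ITSN 3. Vehicle 1 held the lowest Tap1 and the highest Tap2 of its group, and its Tap2 to Tap1 ratio was 3.43 against 1.84 to 2.17 in the other 5 libraries.

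Erap1 was at 15.8, 23.4 and 27.4 FPKM in the vehicle libraries, against 21.9, 23.04 and 22.2 FPKM under ITSN. All ITSN values lay inside the vehicle range, and the vehicle SD was 5.88 against 0.578 FPKM under ITSN. The log2 change of 0.04 (95% interval -0.41 to 0.49, limma adjusted p = 0.92) turned to -0.17 without vehicle 1, to -0.06 with trimmed-mean scaling and to -0.04 with rescaling to nuclear genes.

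Nlrc5, which drives class I transcription, had close vehicle values of 14.97, 14.7 and 15.9 FPKM, and 22.9, 18.7 and 26.4 FPKM under ITSN. Each ITSN library was above each vehicle library. The log2 change was 0.54 (95% interval 0.22 to 0.85, limma adjusted p = 0.10) and the ratio of means 1.49. Within ITSN the order of the libraries, 3 over 1 over 2, was also that of H2-D1, H2-T23, Tap1, Tap2, Tapbp and B2m. The share of all tested genes with that full order was not computed. Across all tested genes ITSN 2 was the lowest ITSN library for 47.3% and ITSN 3 the highest for 45.1%. That order joined with vehicle 3 over 2 over 1 held for 4 of the 10 members and 23.5% of the tested genes.

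Leaving out vehicle 1 let 2 members pass, H2-Q1 (log2 change 0.76, limma adjusted p = 0.029) and H2-D1 (0.42, adjusted p = 0.048), in a fit that called 5.49% of the tested genes. H2-Q1 also passed after trimmed-mean scaling (adjusted p = 0.042 in limma, 0.881% of genes called), quantile normalization (0.032, 0.759%), rescaling to nuclear genes (0.035, 0.645%) and a filter of 5 FPKM (0.047, 0.27%), and H2-D1 also after quantile normalization (0.046). Leaving out any 1 of the other 5 libraries let no member pass, with limma adjusted p from 0.079 to 0.37 for H2-Q1. Removal of the GC trend moved the members unequally. The log2 change of H2-Q1 was 0.74 afterwards, that of H2-T23 0.56 and that of Nlrc5 0.35, while H2-D1 went to 0.19, Tap1 to 0.16 and Tapbp to 0.13. In that fit H2-Q1 had a limma adjusted p of 0.076, or 0.044 with vehicle 1 left out as well (0.515% of genes called).

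Estimates differed with GC content among the tested genes, and the cause of that was not tested. The longest transcripts of 7 members, all but H2-Q1 (49.3%), B2m and Erap1 (41.5%), had 52% to 58% GC. The 3074 tested genes in that range had a median log2 change of 0.26, and 40.6% of them had ITSN values all above vehicle, against 4 of these 7 members. In the 1447 tested genes with 40% to 43% GC the median was -0.06.

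**Figure D3:**
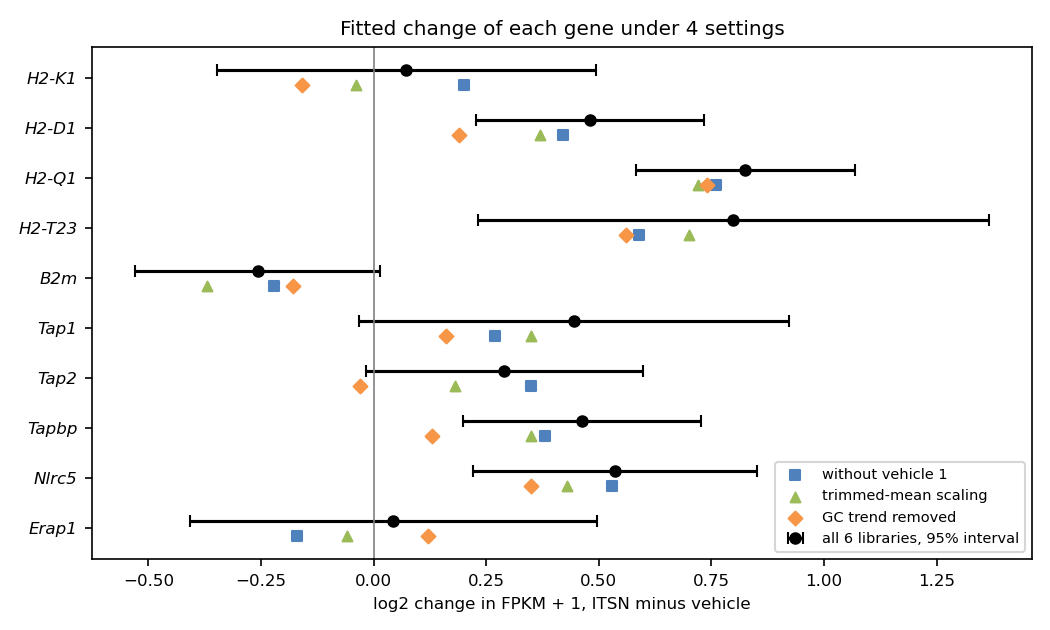
Fitted log2 change (ITSN minus vehicle, log2 of FPKM + 1) of each member, with all 6 libraries and the 95% interval of limma in black, and coloured points for the estimates with vehicle 1 left out, with trimmed-mean scaling and with the GC trend removed. H2-Q1 stays between 0.72 and 0.83 in these settings, whereas H2-D1 and Tapbp drop to 0.19 and 0.13 with the GC trend removed.

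Heavy chain genes resemble each other, and no source used here gives the way reads were shared among them. Of the 50-base words of the longest coding transcript in GENCODE M21, 28.8% in H2-T23, 22.9% in H2-Q1, 14.3% in H2-D1 and 8.79% in H2-K1 also occur in transcripts of another gene, against 0% in B2m, Nlrc5 and Erap1. The gene sharing the most words was H2-Q2 for H2-Q1 (13.9%), H2-Q1 for H2-D1 (7.4%), H2-D1 for H2-K1 (6.94%) and the pseudogene H2-T-ps for H2-T23 (12.9%). Balb/c mice carry the d haplotype of this locus and mm10 the b haplotype of C57BL/6, so reads were placed on another strain's alleles in both groups. H2-L, a further class I heavy chain gene looked for, was not among the listed genes. Any reads from it had no row of their own. Levels of single heavy chains, and the H2-D1 to H2-K1 ratio, are uncertain for these reasons. In mm10, H2-K1 lies at chr17:33996017-34000333, H2-D1 at chr17:35262730-35267499, H2-Q1 at chr17:35320405-35325099 and H2-T23 at chr17:36029773-36032855. Tapbp at chr17:33915899-33929288, Tap1 at chr17:34187553-34197225 and Tap2 at chr17:34203527-34216321 lie in the same region, and B2m (chr2:122147686-122153083), Nlrc5 (chr8:94434356-94527272) and Erap1 (chr13:74639568-74693201) elsewhere. Exons of Tap1 overlap Psmb9, those of Erap1 Cast, those of Nlrc5 9330175E14Rik and those of Tap2 Gm15821 and Gm20496 on the opposite strand, and exons of Tapbp overlap Zbtb22 on the same strand. No source used here gives the use of strand in counting, so these values are uncertain too.

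The wider pathway was read from 9 lists with 61 tested genes. None passed in limma, with 8 higher and 2 lower in ITSN at an unadjusted p under 0.05, where 16.3% and 4.57% of all tested genes were. The 8 include Socs1, which met the filter of 1 FPKM only through its ITSN values. The median log2 change was 0.10, against 0.09 for all tested genes, so these counts and the median stood near or below the background. Of 6 other tested heavy chain genes all 6 had positive estimates, as did 64.0% of all tested genes. Their median was 0.42, or 0.25 without vehicle 1, 0.21 after removal of the GC trend and 0.16 with both. H2-Q6, H2-Q4 and H2-Q7 had ITSN values all above vehicle. That held for 21.8% of all tested genes and 40.6% of those with 52% to 58% GC. H2-Q6 went from 48.6 ± 7.52 to 69.8 ± 9.61 FPKM (log2 change 0.51, limma adjusted p = 0.13) and H2-Q4 from 80.1 ± 10.4 to 104 ± 10.11 FPKM (0.38, adjusted p = 0.17; SD, n = 3 each). The log2 change of H2-Q7 was 0.46 (limma adjusted p = 0.19). The 9 class I-related molecules tested, such as the neonatal Fc receptor gene Fcgrt (0.27), the iron regulator Hfe (0.33) and the protein C receptor gene Procr (-0.19), had a median of -0.06.

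Of 5 loading partners of class I, Pdia3 and Calr had ITSN values all below vehicle, which held for 7.37% of all tested genes. Pdia3, the disulfide isomerase bound to tapasin, was at 193, 192 and 185 FPKM in the vehicle libraries, against 149, 155 and 145 FPKM under ITSN (log2 change -0.34, limma adjusted p = 0.11). The groups did not overlap, and Pdia3 passed without vehicle 1 (log2 change -0.33, adjusted p = 0.049 in limma), where 5.49% of the tested genes did. It did not pass after trimmed-mean scaling, quantile normalization, nuclear rescaling or removal of the GC trend (limma adjusted p = 0.083, 0.13, 0.084 and 0.21). Calr, for calreticulin, was at 179, 169 and 165 FPKM in the vehicle libraries, against 141, 117 and 163 FPKM under ITSN (log2 change -0.30, limma adjusted p = 0.28), also without overlap. Tapbpl, the tapasin relative TAPBPR, stood at a log2 change of 0.26 (limma adjusted p = 0.61), Uggt1 one of 0.09 and Canx one of -0.01, and the median of the list was -0.01.

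Of the 5 immunoproteasome and PA28 genes, which shape peptides for class I under interferon, all 5 had positive estimates with a median of 0.25. The median was 0.06 without vehicle 1, 0.07 after removal of the GC trend and -0.04 with both. Psmb9, the catalytic subunit encoded next to Tap1, was at 2.80, 3.71 and 4.10 FPKM in the vehicle libraries, against 5.34, 7.65 and 6.29 FPKM under ITSN (log2 change 0.71, limma adjusted p = 0.094). ITSN 2 held the highest Psmb9 and the lowest Tap1 of its group. Psmb10 and Psmb8 had log2 changes of 0.56 and 0.25 (limma adjusted p = 0.26 and 0.45) and overlapping groups. Psmb5, the constitutive subunit that Psmb8 replaces, was at 8.89, 10.6 and 11.8 FPKM in the vehicle libraries, against 18.2, 18.3 and 21.1 FPKM under ITSN (log2 change 0.82, limma adjusted p = 0.068). After removal of the GC trend its log2 change was 0.51 (limma adjusted p = 0.098). Its groups did not overlap, and the Psmb8 to Psmb5 ratio was 3.35 to 3.93 in the vehicle libraries, against 2.31 to 2.49 in ITSN. Psmb6 and Psmb7 had log2 changes of 0.19 and 0.02 (limma adjusted p = 0.54 and 0.92). The 7 peptidases tested had a median of -0.05, with Thop1 at 0.30, Tpp2 at -0.12 and Npepps at -0.07.

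Among 14 regulators of class I genes the median was 0.00, and 1 was higher and 1 lower at an unadjusted p under 0.05 in limma. Creb1, a factor that binds the X2 box, was at 14.7, 16.0 and 16.6 FPKM in the vehicle libraries, against 9.98, 9.20 and 9.89 FPKM under ITSN (log2 change -0.65, limma adjusted p = 0.068). After removal of the GC trend its log2 change was -0.56 (limma adjusted p = 0.086). Rela, the NF-κB subunit p65, stood at a log2 change of 0.39 (limma adjusted p = 0.12) and Nfyc, a CCAAT-binding subunit, 0.39 (0.28). Of 11 genes of interferon receptor signalling 8 had positive estimates with a median of 0.10, beside 64.0% and 0.09 for all tested genes. Socs1, a feedback inhibitor of Jak kinases, was low, at 0.27, 0.55 and 0.57 FPKM in the vehicle libraries, against 1.89, 1.23 and 2.68 FPKM under ITSN (log2 change 0.98). Its vehicle values were all under 1 FPKM. It thus met the filter only through its ITSN values, and no p is given for it. Tyk2 and Stat2 had log2 changes of 0.50 and 0.36 (limma adjusted p = 0.10 and 0.33). Ifng, the gene of interferon γ, was not among the listed genes. Irf1, an interferon-induced activator chosen after its values were seen, stood at a log2 change of 0.01 (limma adjusted p = 0.99).

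Of 35 tested interferon-stimulated genes 1 passed in limma, where 0.0571% of all tested genes did. It was the membrane protein gene Ly6e, higher in ITSN (2.75 ± 0.259 to 12.7 ± 1.29 FPKM, SD, n = 3 each, log2 change 1.87, limma adjusted p = 0.0056). Of the 35 genes 31 had positive estimates, beside 64.0% of all tested genes. In all 11 were higher and 0 lower at an unadjusted p under 0.05 in limma, where 16.3% and 4.57% of all tested genes were, and the median was 0.22, or 0.07 without vehicle 1. Ifitm2 and Oas2 followed, with log2 changes of 0.38 and 0.41 (limma adjusted p = 0.091 and 0.10).

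**Figure D4:**
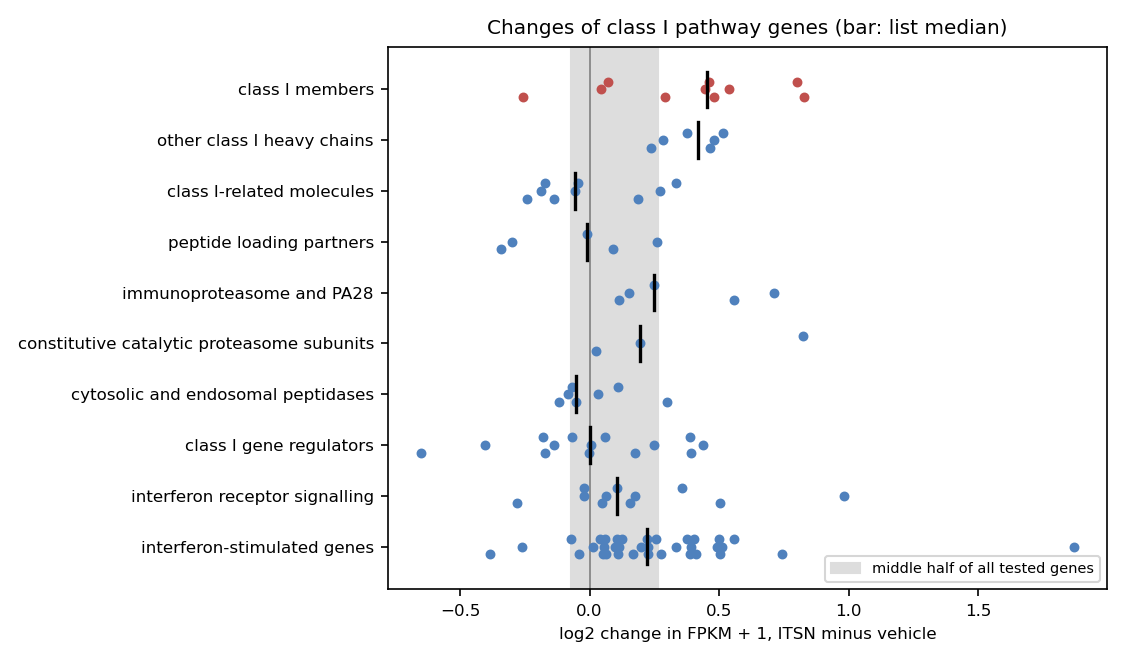
Fitted log2 change (ITSN minus vehicle, log2 of FPKM + 1) of each tested gene of the class I members (red) and of 9 further lists (blue), with a bar at each list's median and the interquartile range of all 12257 tested genes shaded. The members and the other heavy chain genes have medians of 0.45 and 0.42. The median is 0.09 for all tested genes and 0.26 for those with 52% to 58% GC. Ly6e lies farthest right at 1.87.

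Fewer cells of a type and less RNA per cell cannot be told apart in bulk tissue, so marker lists are given beside the class I values. All 8 pan-leukocyte markers were listed, and they summed to 58.5, 103 and 122 FPKM in the vehicle libraries, against 111, 104 and 116 FPKM under ITSN. All 12 macrophage markers were listed, and they summed to 216, 520 and 649 FPKM in the vehicle libraries, against 582, 566 and 606 FPKM under ITSN. The 8 listed of 11 dendritic cell and class II genes summed to 133, 248 and 250 FPKM in the vehicle libraries, against 280, 189 and 271 FPKM under ITSN. In all 3 lists vehicle 1 was far below the other 5 libraries and vehicle 2 and 3 lay within or near the ITSN range. T and NK cell markers summed to 11.9, 16.6 and 21.0 FPKM in the vehicle libraries, against 20.6, 18.0 and 23.5 FPKM under ITSN, with 8 of 19 listed and Cd4, Cd3d and Trac not listed. Cd8a, whose product binds class I, stood at 0.57 to 0.95 FPKM in the 6 libraries. Of the 14 class I receptor genes 6 were listed and 1, Pirb, was tested (log2 change 0.22, limma adjusted p = 0.72). Of 9 B and plasma cell markers 1 was listed, Jchain, at 0 to 0.67 FPKM.

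Neutrophil markers (9 of 10 listed) summed to 240, 132 and 81.7 FPKM in the vehicle libraries, against 101, 127 and 78.5 FPKM under ITSN, and fibroblast markers (10 of 10) to 54.6, 174 and 231 FPKM in the vehicle libraries, against 188, 141 and 224 FPKM under ITSN. Endothelial markers (9 of 10) summed to 27.0 to 41.3 FPKM in the vehicle libraries, against 23.4 to 33.7 FPKM under ITSN, and the 10 listed mammary epithelial markers to 361, 482 and 530 FPKM in the vehicle libraries, against 538, 534 and 562 FPKM under ITSN. The mammary epithelial sum was thus below ITSN in each vehicle library, as was the heavy chain sum, though its vehicle 3 lay just under ITSN 2. Krt18 and Krt8 made up most of it, at 280 and 228 FPKM in vehicle 3, and each overlapped between the groups. Of the 10 markers 7 had positive estimates, beside 64.0% of all tested genes, and Esr1, Krt14 and Krt19 had negative ones. Skeletal muscle markers (9 of 10) summed to 2.66 to 12.0 FPKM in the vehicle libraries, against 5.75 to 82.4 FPKM under ITSN, with ITSN 2 highest, and adipocyte markers (3 of 8) to at most 11.0 FPKM in any library. No gene of these cell type lists passed in limma with all 6 libraries. Without vehicle 1 the perforin gene Prf1 (log2 change 0.63, limma adjusted p = 0.044) and the epithelial claudin gene Cldn4 (1.17, 0.044) passed. That fit called 5.49% of the tested genes. With the GC trend removed as well, neither passed (limma adjusted p = 0.07 and 0.11). The other T and NK cell markers tested, Lck, Gzma and Gzmb, had log2 changes of 0.22, 0.11 and 0.09 with all 6 libraries. These genes were named after their values were seen. The part of cell composition in the class I values was not tested.

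**Figure D5:**
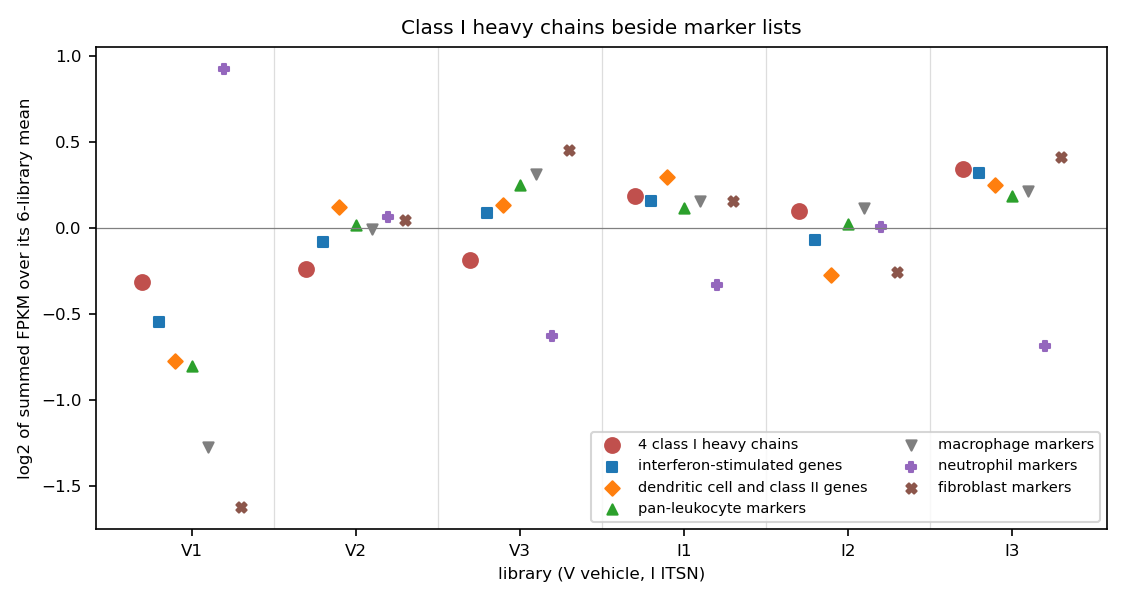
Summed FPKM of the 4 heavy chain members and of 6 marker lists in each library, as log2 of the sum over its mean in the 6 libraries (V vehicle, I ITSN). Vehicle 1 is far from the other libraries in the leukocyte, macrophage, class II, fibroblast and neutrophil lists. The heavy chain sum (large red circles) is below 0 in all 3 vehicle libraries and above 0 in all 3 ITSN libraries.

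The members did not vary in one way across the libraries. The mean of their standardised log2 profiles was -0.75, -0.43 and -0.27 in the vehicle libraries, against 0.40, 0.02 and 1.02 under ITSN. Over these 6 libraries, Tapbp, H2-T23 and Nlrc5 correlated with that mean at 0.97 each, H2-D1 at 0.95 and Tap1 at 0.93, whereas H2-K1 and Erap1 did so at 0.31 and 0.29 and B2m at -0.73, each member being part of the mean. ITSN 2 was the lowest ITSN library for 8 of the 10 members and ITSN 3 the highest for 8, which held for 47.3% and 45.1% of the tested genes. Vehicle 1 was the lowest vehicle library for 6 members, as for 64.4% of the tested genes. The genes outside the members with the profile most like the mean were B4galt5 (r = 0.996), Mmp14, Atxn2l and Kdm5c (0.995 each) and Lemd2 (0.994). With 6 libraries such values are common, and 1131 genes (9.23%) reached an r of 0.9.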

How the data were processed

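The authors deposited FPKM values for each gene in each of the 6 libraries, per the file headers, on the mm10 build, per the submitters' processing notes. How reads were aligned, assigned to genes and scaled, and the annotation and strand setting, were not given in the sources used here. Libraries were strand-marked with dUTP, per the labels' protocols. The higher group mean was at least 0.5 FPKM for every listed gene, so lower genes were not analysed here. Columns were matched to samples by their descriptions, and replicate numbers follow the order of the sample records. For ITSN 3 the title and the description give different numbers, and the description was used. Each group has 3 mice.

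Genes with at least 1 FPKM in 3 libraries (12257 of 13823) were tested as log2(FPKM + 1), a scale that understates changes of low genes, with limma 3.58.1 under R 4.3.3 (mean-variance trend, two-sided, Benjamini-Hochberg threshold 0.05). The test was checked on simulated data. The low values of 300 genes per library showed no clear steps of whole reads (periodicity 0.121 to 0.169, against 0.0808 to 0.146 after jitter), so no counts were recovered. GC content came from the longest GENCODE M21 transcript, matched by ID for 99.7% of genes. Promoters came from RefSeq (GRCm38.p6), and the motifs were chosen with the windows in view. Alternatives were other pseudocounts, filters, scalings, GC removal and left-out libraries. Named were all members, list genes that passed, and otherwise the 3 genes of each pathway list with the smallest p, and the 5 genes with the profile most like the members' mean. Markers are given as sums. Members and lists were chosen with earlier results of these data known. Other steps used Python 3.11.15, pandas 2.3.3 and numpy 2.4.6.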

Additional observations from a re-analysis of the deposited data

How the results depend on the processing

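Of 170 recomputed member estimates, 150 kept their direction and their side of the threshold, 10 kept their direction and passed, and 10 turned. Leaving out vehicle 1 gave H2-K1 0.20, and leaving out vehicle 3 gave Erap1 0.21. H2-K1 turned to -0.04 after trimmed-mean scaling, -0.01 after nuclear rescaling, -0.16 after GC removal and -0.08 without ITSN 3. Tap2 turned to -0.03 after GC removal. Erap1 turned to -0.06 after trimmed-mean scaling, -0.04 after nuclear rescaling, -0.17 without vehicle 1, -0.06 without it after GC removal and -0.21 without it after trimmed-mean scaling, a combination chosen after seeing the data. The cause was not tested. H2-Q1, H2-T23, H2-D1, Nlrc5, Tapbp, Tap1 and B2m kept their direction in all 17 alternatives.

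Members that passed in limma numbered 0 in the main comparison (5 at an unadjusted p under 0.05), 1 after trimmed-mean scaling, 1 after nuclear rescaling, 1 with a filter of 5 FPKM, 1 with the GC trend removed and vehicle 1 left out, 2 after quantile normalization, 2 with trimmed-mean scaling and vehicle 1 left out, and 0 to 2 with each library left out in turn. Pathway list genes that passed numbered 0, and 2 after each of trimmed-mean scaling, quantile normalization and nuclear rescaling (Psmb5 higher, Creb1 lower), 4 with trimmed-mean scaling and vehicle 1 left out, and 0 to 3 with each library left out. They numbered 0 after removal of the GC trend, also with vehicle 1 left out. Over all genes 7 passed, against 19 with a filter of 5 FPKM, 108 after trimmed-mean scaling (59 higher), 93 after quantile normalization (62 higher), 79 after nuclear rescaling (56 higher), 63 with the GC trend removed and vehicle 1 left out (21 higher), 975 with trimmed-mean scaling and vehicle 1 left out, and 1 to 673 with each library left out, the highest without vehicle 1. With the replicate number as a block 2 genes passed and 0 members. The numbers pair nothing in the labels, deviations of same-numbered libraries correlated at 0.00, -0.14 and 0.24, and vehicle 1 correlated best with ITSN 2 (0.25). The log2 ratio of the summed heavy chains was 0.46, 0.35 after trimmed-mean scaling, 0.18 after GC removal, 0.23 when vehicle 1 was left out too, and 0.39 to 0.51 with each library left out. Only 3 libraries per group and an unknown depth limit these values.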
